A study of Mus musculus with 11 samples.

Results

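Transcripts of 36 genes of blood coagulation and complement were followed in the livers of db/db mice, out of 15974 genes tested on the arrays. They were chosen by name, as 18 genes of coagulation and fibrinolysis and 18 genes of complement, and found through probes designed on one of their RefSeq transcripts. All 36 had at least 1 such probe. The 46 probes found were all well above background in the liver dye on enough arrays to be kept, and where a gene had several, its brightest probe was used.

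All mice carried the db/db genotype, which leaves them without a working leptin receptor, so that they become obese and diabetic. The PBS group (5 samples, replicates 1, 3, 4, 5 and 6) received phosphate-buffered saline. The anti-GCGR group (6 samples, replicates 1 to 6) received 5 mg/kg of the monoclonal antibody 3c7.v44 mAb, directed against the glucagon receptor, through which the hormone glucagon acts on hepatocytes. The comparison asks which liver transcripts differ when this receptor is blocked in diabetic mice. A PBS replicate 2 was not analysed here, and the labels used here give no age, sex, dosing schedule or lean control. Whether every sample is a separate mouse is not stated either, so the p-values rest on a spread between samples that may be technical. Each liver sample (dye Cy5) shared its array with a pooled mouse reference RNA (dye Cy3), and every level below is the log2 ratio of liver over reference for that gene.

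Most plasma proteins of both systems are made by hepatocytes and released into the blood as inactive precursors. In coagulation, a contact arm and a tissue factor arm activate proteases one after another until thrombin turns fibrinogen into fibrin, and plasmin later dissolves the clot. In complement, a classical, a lectin and an alternative arm all cleave C3, after which the terminal components assemble a pore in the target membrane. The recognition protein C1q is an exception among these proteins, being made mainly by macrophages, in the liver by Kupffer cells.

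The tissue label was borne out by its markers: the mean log2 ratio of 11 hepatocyte genes lay between 6.82 and 7.07 on the PBS arrays and between 6.88 and 7.09 on the antibody arrays. The median Cy5 signal per array was 85 to 110 scanner units against a local background of 26 to 27, and 66.2% to 77.1% of gene spots were well above background. Precision is limited by how few arrays there are. They came from 3 slides, each with samples of both groups: slide 1 held PBS 1 and 4 and anti-GCGR 1 and 4, slide 2 held PBS 5 and anti-GCGR 2 and 5, and slide 3 held PBS 3 and 6 and anti-GCGR 3 and 6. On slide 2, PBS 5 and anti-GCGR 5 stood apart. Over genes called with an array left out, that array was placed on a scale from 0 (the mean of the other PBS arrays) to 1 (the mean of the other antibody arrays). The library labelled anti-GCGR 5 had a median position of 0.19 and was nearer to PBS for 75.7% of 3868 genes, whereas the other antibody libraries had positions of 0.90 to 1.24. PBS 5 lay at 0.29 and was nearer to PBS for 70.3% of 2059 genes, and the other PBS libraries between -0.03 and 0.10. Whether the label of either library is right was not tested, and every group mean and fold change below takes the labels as given. For this reason results are also given without anti-GCGR 5. Leaving it out raised the number of genes called from 2338 to 3868, whereas leaving out any other single array gave 1240 to 2059. Because anti-GCGR 5 was singled out on these same values, p-values without it describe that fit and are not separate tests. Gcgr itself, the receptor gene, was at 6.54 ± 0.06 (SD, n = 5) with PBS and 6.72 ± 0.15 (SD, n = 6) with antibody (log2 fold change 0.18 ± 0.07 SE, limma adjusted p = 0.108, exact permutation p = 0.0433 over 462 splits, two-sided), and 0.24 without anti-GCGR 5. Its level does not test the labels, because an antibody blocks the protein.

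The promoters of 4 of these genes are shown first, as the genes on which the results turn: C3 and C9 fell, C1qb rose, and Fga stands for the fibrinogen genes, none of which passed the test. Each is written 5′ to 3′ along the gene's own strand and runs from 250 bases before to 50 bases after the start of the RefSeq transcript (assembly GRCm38.p6). The C3 promoter lies at chr17:57228087-57228386 (minus strand), the C9 promoter at chr15:6445096-6445395 (plus strand), the C1qb promoter at chr4:136886151-136886450 (minus strand) and the Fga promoter at chr3:83025903-83026202 (plus strand). Capitals mark a match to the C/EBP motif TTGCNNAA, bound by a family of hepatocyte and acute phase factors, and in C1qb a match to the myeloid PU.1 motif GAGGAA, on either strand.
C3: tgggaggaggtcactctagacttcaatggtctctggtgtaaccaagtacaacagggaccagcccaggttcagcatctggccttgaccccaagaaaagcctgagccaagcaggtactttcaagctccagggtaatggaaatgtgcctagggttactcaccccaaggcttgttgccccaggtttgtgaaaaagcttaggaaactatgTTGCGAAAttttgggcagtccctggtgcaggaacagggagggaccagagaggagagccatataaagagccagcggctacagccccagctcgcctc
C9: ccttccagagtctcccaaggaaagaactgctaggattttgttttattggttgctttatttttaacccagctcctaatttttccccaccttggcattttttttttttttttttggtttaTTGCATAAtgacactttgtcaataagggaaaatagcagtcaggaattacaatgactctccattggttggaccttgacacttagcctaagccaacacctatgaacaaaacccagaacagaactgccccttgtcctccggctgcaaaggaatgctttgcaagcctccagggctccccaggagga
C1qb: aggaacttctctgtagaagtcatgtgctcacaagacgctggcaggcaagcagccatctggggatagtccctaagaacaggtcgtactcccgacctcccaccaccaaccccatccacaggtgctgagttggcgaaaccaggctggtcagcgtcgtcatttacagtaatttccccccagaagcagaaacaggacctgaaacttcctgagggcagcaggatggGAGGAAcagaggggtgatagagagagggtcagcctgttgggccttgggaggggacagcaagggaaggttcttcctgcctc
Fga: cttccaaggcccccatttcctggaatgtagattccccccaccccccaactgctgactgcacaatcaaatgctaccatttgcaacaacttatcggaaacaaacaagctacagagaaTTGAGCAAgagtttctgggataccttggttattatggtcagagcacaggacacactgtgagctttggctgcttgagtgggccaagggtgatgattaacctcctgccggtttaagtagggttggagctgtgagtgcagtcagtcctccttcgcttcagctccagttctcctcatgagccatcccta
The match began 45 bases before the start in C3, 132 in C9, 30 in C1qb and 135 in Fga. Of the 36 genes, 27 had a promoter in the table used. For each motif, a gene was counted if any of its promoters matched, whereas the share over all promoters counts each promoter singly. The shares are therefore not like for like, and no enrichment was tested. The C/EBP letters were in 8 of these 27 (C3, C9, F11, F9, Fga, Fgb, Hrg and Klkb1) and in 10.8% of 32851 promoters of the same length. The STAT motif TTCNNNGAA was in 7 of 27 against 8.3% of all promoters, the HNF1 letters GTTAAT in 8 of 27 against 7.1%, and GAGGAA in 4 of 27 against 28.3%. The cAMP response element TGACGTCA, bound by the factor CREB that glucagon signalling activates, was in none of the 27 and in 1.79% of all promoters. All motifs were searched on both strands, and a match is a description of letters, not of a bound site.

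With antibody, 1 of the 36 genes rose (C1qb) and 3 fell (C3, C9 and F10), and 32 did not pass the test (limma, 6 against 5 arrays, two-sided, Benjamini-Hochberg adjusted p under 0.05 over all 15974 genes). Across all genes tested, 8.98% rose and 5.66% fell, 14.6% in all, so 4 of 36 is near the background. The call of F10 rests on 1 of its 2 probes. The log2 fold change was above 0 in 17 of the 36 genes, against 53.7% of all genes. Its median was -0.01 over the 36 and 0.01 over all genes. Of the 36 genes, 26 differed by less than 0.2 in either direction (72.2%, against 77.3% of all genes). For 28 of the 36 the 95% interval of the log2 fold change lay within 0.5 of 0. The groups did not overlap in 1 gene, C1qb, while among all genes 6.64% did not overlap (3.95% higher and 2.69% lower with antibody). These are whole-liver samples, in which fewer cells of a type and less RNA per cell cannot be told apart.

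Without anti-GCGR 5 more of the genes passed: 3 rose (C1qb, C1qc and F12) and 6 fell (C3, C9, C8b, C2, Pros1 and F10). The background then also went up, to 14.4% rising and 9.85% falling among all genes. The share of called genes that rose depended on the scaling of the arrays. With loess, used here, 1434 rose and 904 fell, a share of 61.3% rising. Centring each array on its median gave 581 rising and 2145 falling genes (21.3% rising). The ratio computed by the scanner's software gave 977 and 1185 (45.2%), and Cy5 without the reference channel gave 1175 and 1115 (51.3%).

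**Figure D1:**
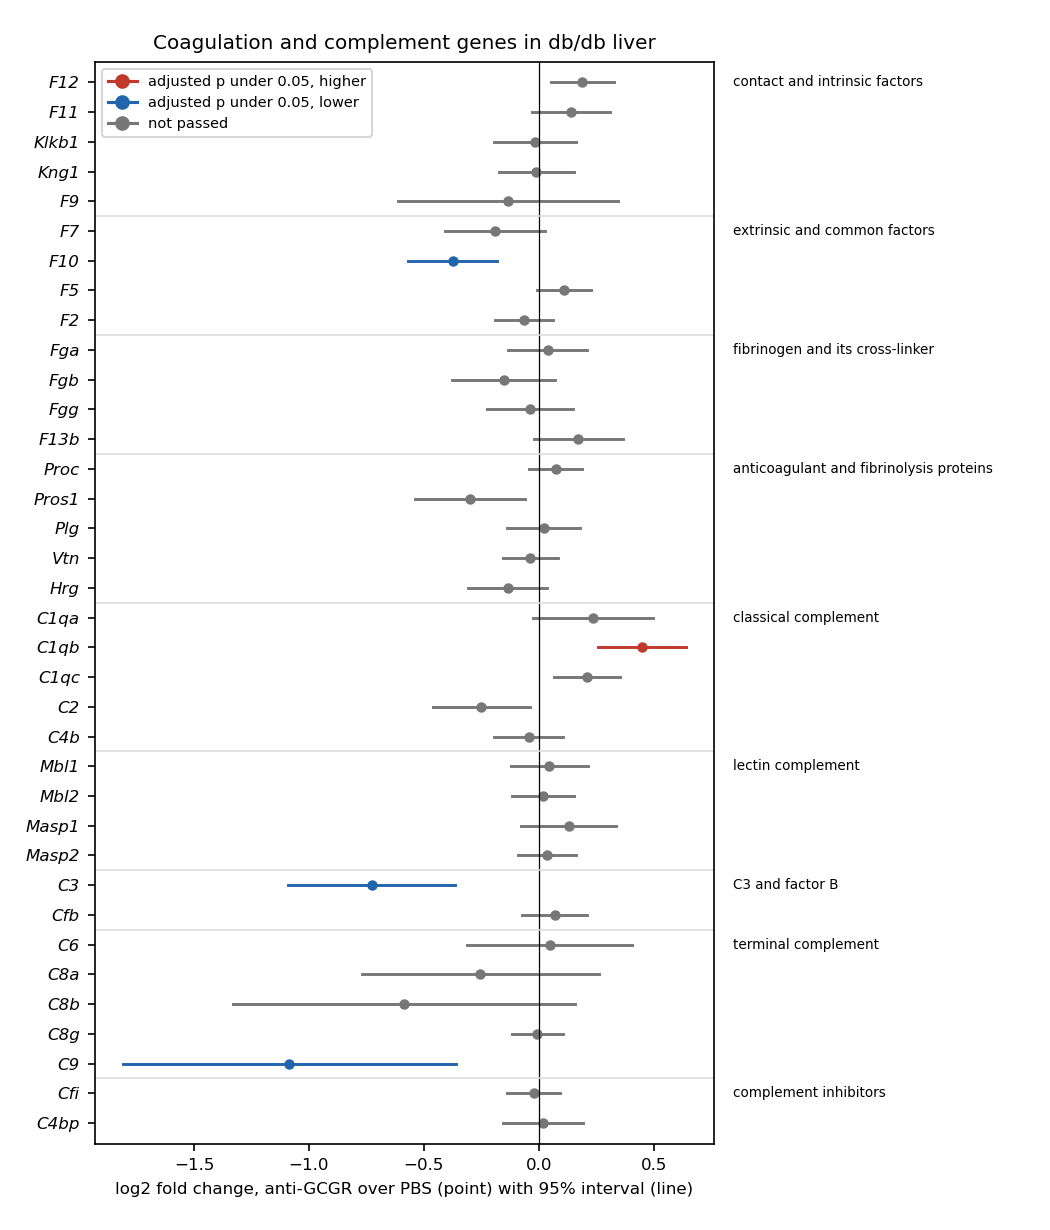
Log2 fold change of each of the 36 genes, anti-GCGR (6 arrays) over PBS (5 arrays), on the x axis, with the 95% interval of the limma fit as a line, ordered by role. C3, C9 and F10 are the genes called lower (blue), C1qb is the gene called higher (red), and 28 of the 36 intervals lie within 0.5 of 0.

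All 36 genes were more abundant in liver than in the reference RNA, as PBS means ran from a log2 ratio of 1.15 for F10 to 8.93 for Fgg (median 5.79), and 35 of them were more than 4-fold above the reference. These ratios depend on how much of each transcript the reference holds, so they do not order the genes by abundance.

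Genes of the contact and intrinsic arm did not pass the test, 0 of 5. F12, the protease that starts contact activation, came closest. It was at 5.69, 5.51, 5.70, 5.47 and 5.62 on PBS replicates 1, 3, 4, 5 and 6, and at 5.63 to 5.87 (median 5.81) on the antibody arrays. The lowest antibody value, 5.63, was that of anti-GCGR 5, and the other 5 antibody arrays lay at 5.74 or higher, above the highest PBS array. The log2 fold change of F12 was 0.19 ± 0.06 (SE, limma adjusted p = 0.0628), with differences of 0.17, 0.23 and 0.23 within slides 1, 2 and 3. Without anti-GCGR 5 it was 0.22 (limma adjusted p = 0.0187). The size depended on the scaling, at 0.084 with median centring (limma adjusted p = 0.442) and 0.097 with the scanner software's ratio (limma adjusted p = 0.471). With the Cy5 channel alone F12 was at 0.23 (limma adjusted p = 0.044). It passed in 5 of 14 other settings and in 1 of the 11 fits that left out 1 array.

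F11, the next protease of this arm, was at 4.97 ± 0.10 (SD, n = 5) with PBS and 5.11 ± 0.16 (SD, n = 6) with antibody (log2 fold change 0.14, limma adjusted p = 0.248). Prekallikrein (Klkb1), which activates F12 in turn, differed by -0.02, and the kininogen Kng1, its carrier, by -0.01. A second probe of Kng1 gave 0.08, and its transcripts are nearly identical to those of Kng2, which the probes may not separate. F9, the protease missing in haemophilia B, spread widely in both groups: PBS arrays ran from 3.38 (PBS 5) to 4.60 and antibody arrays from 3.70 to 4.64. Its log2 fold change of -0.13 had a 95% interval of -0.61 to 0.34, so a fall or a rise within those bounds was not excluded.

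In the extrinsic and common arm 1 of 4 genes fell, F10, on the probe used. F10 encodes the protease that converts prothrombin. On its brightest probe it was at 1.13, 1.19, 1.14, 1.25 and 1.02 on the PBS arrays in the order above and at 0.53 to 1.09 (median 0.77) on the antibody arrays. Its highest antibody value was that of anti-GCGR 5, which lay within the PBS range, and the other 5 were at 0.86 or lower, below all PBS arrays. Against PBS this was a difference of -0.38 ± 0.09 in log2 (SE, limma adjusted p = 0.0171), a 1.30-fold lower level, and -0.44 without anti-GCGR 5.

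The other probe of F10 did not show this difference. Its log2 fold change was -0.01 ± 0.06 (SE, limma adjusted p = 0.947). The probes also differed in their signal from the reference RNA: the probe used had median Cy5 and Cy3 signals of 217954 and 153757 scanner units, and the other probe 45331 and 1109. With the Cy5 channel alone the log2 fold change on the probe used was -0.12 (limma adjusted p = 0.188). A lower level of F10 is therefore not settled by these arrays.

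F7, the partner of tissue factor, was at 4.93 ± 0.21 (SD, n = 5) and 4.74 ± 0.16 (SD, n = 6), which differ by -0.19 in log2 (limma adjusted p = 0.224), and its second probe also gave -0.19. Its difference was -0.47 within slide 1, 0.04 within slide 2 and 0.01 within slide 3. F5, the cofactor of factor X, differed by 0.11 (log2, limma adjusted p = 0.204). With the Cy5 channel alone the sign of F5 turned, to -0.24 (limma adjusted p = 0.026).

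Prothrombin (F2), the precursor of thrombin, was among the most even genes. It was at 6.69, 6.38, 6.61, 6.45 and 6.55 on the PBS arrays and at 6.41 to 6.51 (median 6.48) on the antibody arrays, all of them inside the PBS range. F2 thus differed by -0.06 ± 0.06 (log2, SE, limma adjusted p = 0.515), with a 95% interval of -0.19 to 0.06.

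The fibrinogen chains, which thrombin turns into fibrin, did not pass the test, and their 3 genes lie together on chromosome 3. Fga, the alpha chain, was at 6.77, 6.53, 6.59, 6.43 and 6.87 with PBS and at 6.49 to 6.77 (median 6.70) with antibody. Its log2 fold change was 0.04 ± 0.08 (SE, limma adjusted p = 0.791), and its second probe gave 0.22. Fgb, the beta chain, was at 7.47, 7.02, 7.27, 7.13 and 7.47 with PBS and at 6.93 to 7.42 (median 7.09) with antibody, a difference of -0.15 ± 0.10 (log2, SE, limma adjusted p = 0.356). Fgg, the gamma chain, was at 8.98, 8.61, 9.06, 8.85 and 9.13 with PBS and at 8.75 to 9.01 (median 8.91) with antibody, a difference of -0.04 ± 0.09 (log2, SE, limma adjusted p = 0.811).

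For all these chains the antibody values lay largely within the PBS range, and the 95% intervals of the log2 fold changes ran from -0.13 to 0.21 for Fga, from -0.38 to 0.07 for Fgb and from -0.23 to 0.15 for Fgg. F13b encodes the carrier subunit of factor XIII, the enzyme that cross-links fibrin. Its log2 fold change was 0.17 ± 0.09 (SE, limma adjusted p = 0.219), with PBS 5 at 6.39 below the other PBS arrays (6.72 to 6.85). Leaving out anti-GCGR 5 gave no call in any of these 4 genes.

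Among the anticoagulant and fibrinolysis genes 0 of 5 passed. Pros1, which encodes protein S, the cofactor of activated protein C, had the smallest p. It was at 2.53, 2.32, 2.40, 2.02 and 2.46 on the PBS arrays and at 1.77 to 2.41 (median 2.05) on the antibody arrays. PBS 5 was the lowest PBS array and anti-GCGR 5 the highest antibody array. Antibody minus PBS was -0.30 ± 0.11 (log2, SE, limma adjusted p = 0.0886), and -0.37 without anti-GCGR 5 (limma adjusted p = 0.0131). Within slides it was -0.62, 0.23 and -0.35.

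Protein C itself (Proc) differed by 0.07, plasminogen (Plg), the precursor of plasmin, by 0.02, and vitronectin (Vtn), an adhesion protein that binds the inhibitor of plasminogen activators, by -0.04. Hrg, a histidine-rich plasma protein that binds plasminogen and heparin, differed by -0.14 (limma adjusted p = 0.277). Counted over all 6 vitamin K-dependent genes (F2, F7, F9, F10, Proc and Pros1), 5 had a log2 fold change below 0, and the median was -0.16. Only F10 passed the test, and its other probe gave -0.01. Among all genes tested, 7397 of 15974 had a log2 fold change below 0 and 5.66% fell.

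C1q is the sensor of the classical arm, a complex of 3 chains whose genes lie side by side on chromosome 4. C1qb rose. It was at 2.47, 2.45, 2.50, 2.51 and 2.66 on the PBS arrays and at 2.67 to 3.24 (median 2.94) on the antibody arrays. The groups did not overlap, though the highest PBS array (PBS 6) and the lowest antibody array (anti-GCGR 5) nearly touched. Its mean was higher with antibody by 0.45 ± 0.09 in log2 (SE, limma adjusted p = 0.00875), a 1.36-fold higher level. In the single channels the Cy5 difference was 0.26 and the Cy3 difference of the shared reference -0.11. The 1.36-fold of the ratio thus rests in part on the reference channel.

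The difference of C1qb had the same sign and nearly the same size within each slide (0.42, 0.44 and 0.49), and without anti-GCGR 5 it was 0.51. It passed in each of the 11 fits that left out 1 array. It missed the threshold with the scanner software's ratio (0.39, limma adjusted p = 0.101) and with the Cy5 channel alone (0.27, limma adjusted p = 0.0655).

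C1qc was at 3.89, 3.86, 4.02, 3.81 and 4.07 with PBS and at 3.95 to 4.24 (median 4.16) with antibody. Its lowest antibody value was again that of anti-GCGR 5, and the other 5 lay above all PBS arrays. C1qc differed by 0.21 ± 0.07 (log2, SE, limma adjusted p = 0.0522), and 0.25 without anti-GCGR 5 (limma adjusted p = 0.0118). Median centring gave 0.094 (limma adjusted p = 0.392) and the scanner software's ratio 0.084 (limma adjusted p = 0.386). C1qa was at 3.72, 3.64, 3.85, 3.41 and 3.90 with PBS and at 3.58 to 4.26 (median 3.94) with antibody, so that the groups overlapped. Its log2 fold change was 0.24 ± 0.12 (SE, limma adjusted p = 0.212) and within slides it was 0.03, 0.39 and 0.44.

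Some markers of the cells that make C1q also rose. Of 13 Kupffer cell and macrophage markers measured (all well above background on all arrays), 4 rose, 0 fell and 9 did not pass. The log2 fold change was above 0 in all 13 (median 0.19, against 0.01 over all genes). Among all genes tested, 8.98% rose, 5.66% fell and 53.7% were above 0. This was not particular to macrophage markers. All 7 neutrophil, all 10 stellate cell and fibroblast and 9 of 10 endothelial markers were also above 0 (medians 0.20, 0.28 and 0.24). In the T, NK and B cell list 3 of 7 were, and in the hepatocyte list 5 of 11. The share of called genes that rose also depended on the scaling, at 61.3% with loess and 21.3% with median centring. The mean log2 ratio of the list was 2.36 to 2.72 on the PBS arrays and 2.50 to 2.88 on the antibody arrays. Fcgr1, the high-affinity IgG receptor, rose by 0.50 ± 0.09 (SE) and the folate receptor Folr2 by 0.45 ± 0.10, neither with overlap, while Folr2 changed sign with the scanner software's ratio (-0.12). The scavenger lectin Mrc1 rose by 0.29 and the Kupffer cell lectin Clec4f by 0.23. When 1 array was left out, Fcgr1 and Folr2 passed in 11 of 11 fits, Clec4f in 4 and Mrc1 in 3. The part of these cells in the C1q values was not tested.

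C2, the protease that C1s cleaves to form the C3 convertase, was at 4.83, 4.71, 4.79, 4.57 and 4.73 with PBS and at 4.16 to 4.84 (median 4.49) with antibody. The highest antibody value was that of anti-GCGR 5, above every PBS array, and the other 5 were at 4.53 or lower, below every PBS array. The log2 fold change of C2 was -0.25 ± 0.10 (SE, limma adjusted p = 0.107), and -0.32 without anti-GCGR 5 (limma adjusted p = 0.00999). C4b, which supplies the other part of that convertase, differed by -0.04 ± 0.07 (SE, limma adjusted p = 0.72). Its reading may include transcripts of the nearly identical C4a, which was not measured separately.

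Lectin arm genes did not pass the test, 0 of 4. Their log2 fold changes were 0.05 for Mbl1 and 0.02 for Mbl2, the mannose-binding lectins, 0.13 ± 0.10 (SE, limma adjusted p = 0.402) for the protease Masp1 and 0.04 for the protease Masp2. The 95% interval was -0.12 to 0.21 for Mbl1, -0.12 to 0.15 for Mbl2 and -0.09 to 0.16 for Masp2. Masp1 was at 2.38, 2.13, 2.33, 2.01 and 2.24 with PBS and at 2.17 to 2.68 (median 2.31) with antibody, with the groups overlapping.

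C3, the component on which all arms converge, fell. It was at 6.49, 6.20, 6.32, 6.10 and 6.55 on PBS replicates 1, 3, 4, 5 and 6, and at 5.26, 5.88, 5.56, 5.22, 6.25 and 5.46 on antibody replicates 1 to 6. Only anti-GCGR 5 lay within the PBS range, and the other 5 antibody arrays were below every PBS array. C3 differed by -0.73 ± 0.17 (log2, SE, limma adjusted p = 0.0154), a 1.66-fold lower level. Its second probe gave -0.72 (fit over all probes, limma adjusted p = 0.0157).

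Without anti-GCGR 5 the log2 fold change of C3 was -0.86 (limma adjusted p = 0.000474), and C3 passed in each of the 11 fits that left out 1 array. Within slides 1 and 3 the difference was -1.17 and -0.87, and within slide 2, where anti-GCGR 5 sits, it was -0.04. Both dyes moved: the log2 Cy5 signal of the liver was lower with antibody by a difference of -0.36, and the log2 Cy3 signal of the shared reference was higher by 0.39. The reference received no treatment, so its difference is not a measure of C3 in these livers, and its cause was not tested. With the Cy5 channel alone, normalized between arrays, C3 differed by -0.19 (log2, limma adjusted p = 0.0324). The direction of C3 was thus the same in the ratio and in Cy5 alone. Its size was not, and the 1.66-fold of the ratio rests in part on the reference channel.

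Cfb, the alternative arm's counterpart of C2 and its neighbour on chromosome 17, differed by 0.07 ± 0.07 (SE, limma adjusted p = 0.527). Its antibody arrays ran from 5.94 to 6.21 and its PBS arrays from 5.86 to 6.09.

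The terminal components, which form the membrane pore, included the largest difference of the 36 genes and also the largest spread. C9, the subunit that lines the pore, fell. It was at 5.46, 5.19, 5.09, 4.40 and 5.26 on PBS replicates 1, 3, 4, 5 and 6, and at 3.10, 3.83, 4.34, 3.62, 5.43 and 3.67 on antibody replicates 1 to 6. Anti-GCGR 5 was close to the highest PBS array, PBS 5 was the lowest of its group, and the other 5 antibody arrays lay below all PBS arrays.

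The log2 fold change of C9 was -1.08 ± 0.34 (SE, limma adjusted p = 0.0471), a 2.12-fold lower level with a 95% interval of -1.81 to -0.36. Without anti-GCGR 5 it was -1.37 (limma adjusted p = 0.000867). The call was fragile with all arrays in: C9 passed in 2 of the 11 fits that left out 1 array, those without PBS 5 and without anti-GCGR 5. With the slide as a block it was -1.12 (limma adjusted p = 0.0507), and within slides 1, 2 and 3 the difference was -1.92, 0.23 and -1.23. In the single channels the Cy5 difference was -1.23 and the Cy3 difference -0.09.

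C8b, the beta subunit of C8, which seats C9 in the membrane, was lowest on the same antibody arrays as C9 (1, 4 and 6) without passing the test. It was at 6.35, 5.87, 6.25, 5.51 and 6.95 with PBS and at 4.85, 5.91, 5.99, 4.91, 6.80 and 5.16 with antibody replicates 1 to 6, so that the groups overlapped. C8b differed by -0.58 ± 0.34 (log2, SE, limma adjusted p = 0.278), and -0.82 without anti-GCGR 5 (limma adjusted p = 0.0493). Its sign turned with the scanner software's ratio, to 0.28 (limma adjusted p = 0.586). Within slides it was -1.42, 0.85 and -0.84.

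C8a, the alpha subunit and the neighbour of C8b on chromosome 4, was at 6.44, 6.11, 6.20, 5.50 and 6.72 with PBS and at 5.14 to 6.52 (median 6.06) with antibody. Its log2 fold change was -0.25 ± 0.24 (SE, limma adjusted p = 0.522), and its second probe gave -0.16. The scanner software's ratio turned its sign, to 0.21 (limma adjusted p = 0.464), and within slides the difference was -0.70, 0.84 and -0.56. C8g, the gamma subunit, differed by -0.01 ± 0.05 (SE), with a 95% interval of -0.12 to 0.10. C6, which joins the complex before C8, differed by 0.05 with an interval of -0.31 to 0.41, and PBS 5 was its lowest array at 1.38.

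**Figure D2:**
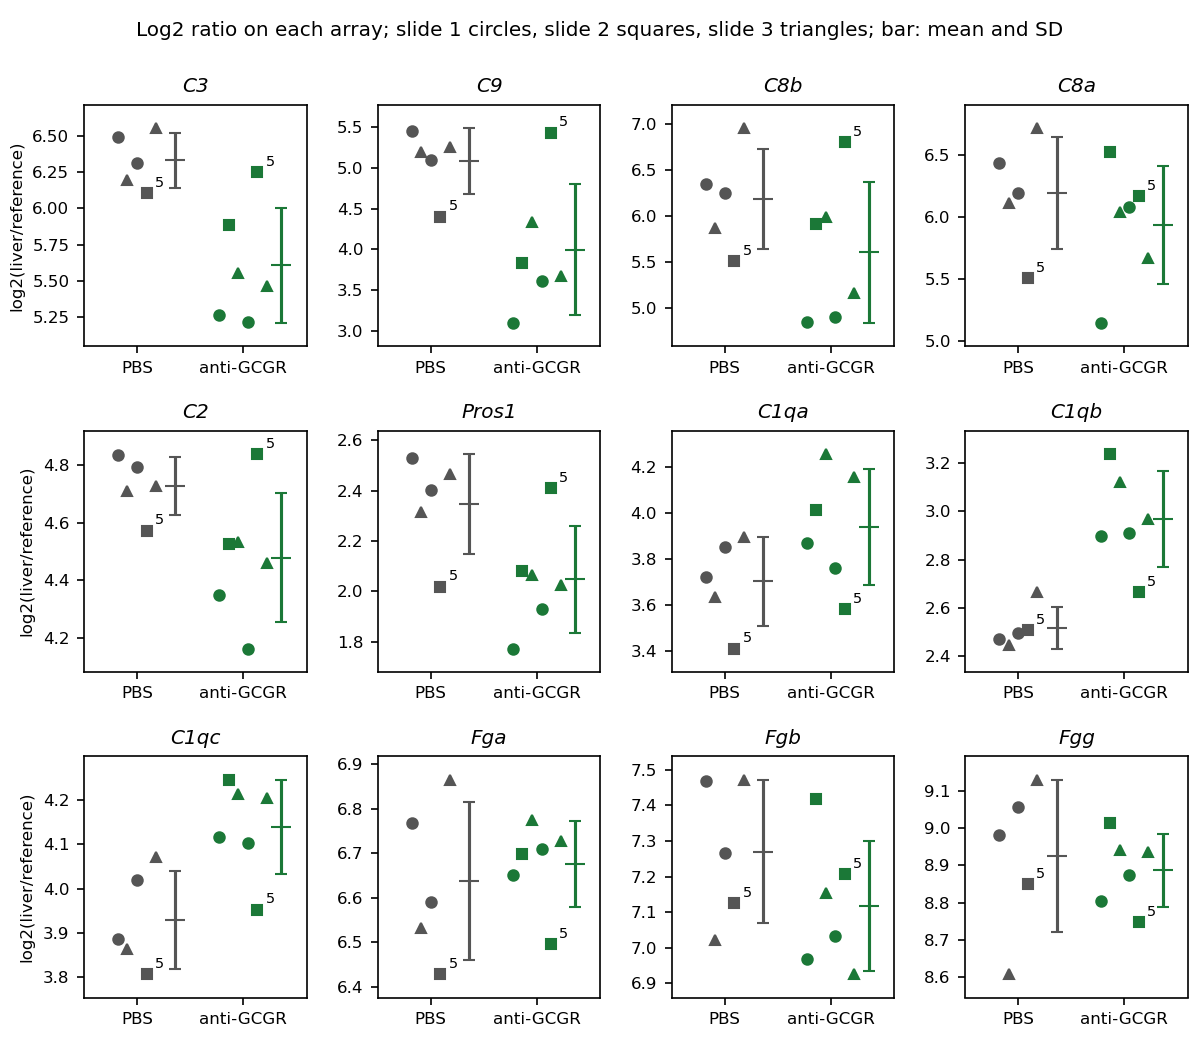
Log2 ratio of liver over reference (y axis) on each array for 12 of the genes, PBS in grey and anti-GCGR in green, with slides 1, 2 and 3 as circles, squares and triangles, replicate 5 marked in both groups, and the group mean with its SD beside the points. In C3, C9, C2 and Pros1 the square marked 5 of the antibody group lies among or above the PBS arrays, and in C1qb it is the lowest antibody array at 2.67.

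The complement inhibitors did not pass the test, 0 of 2. Cfi, the protease that degrades activated C3 and C4, differed by -0.02 ± 0.05 (SE, limma adjusted p = 0.823), with antibody arrays between 6.14 and 6.24 and PBS arrays between 6.08 and 6.35. C4bp, the cofactor of Cfi that binds C4b, differed by 0.02 with an interval of -0.15 to 0.19.

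The 36 genes differed among themselves in how they varied over the PBS arrays. The SD of the 5 PBS arrays ran from 0.07 for C8g to 0.54 for C8b among the genes that did not pass, and was 0.40 for C9, 0.45 for C8a, 0.48 for F9 and 0.42 for C6. In each of these 5 genes, C8b included, PBS 5 was the lowest PBS array. This was not particular to them, as PBS 5 was also the lowest PBS array in F12, F7, Proc, Pros1, C2, C3 and further genes of the 36. The heat map of values against the PBS mean shows this as a dark column segment at PBS 5 in F9, C6, C8a, C8b and C9.

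**Figure D3:**
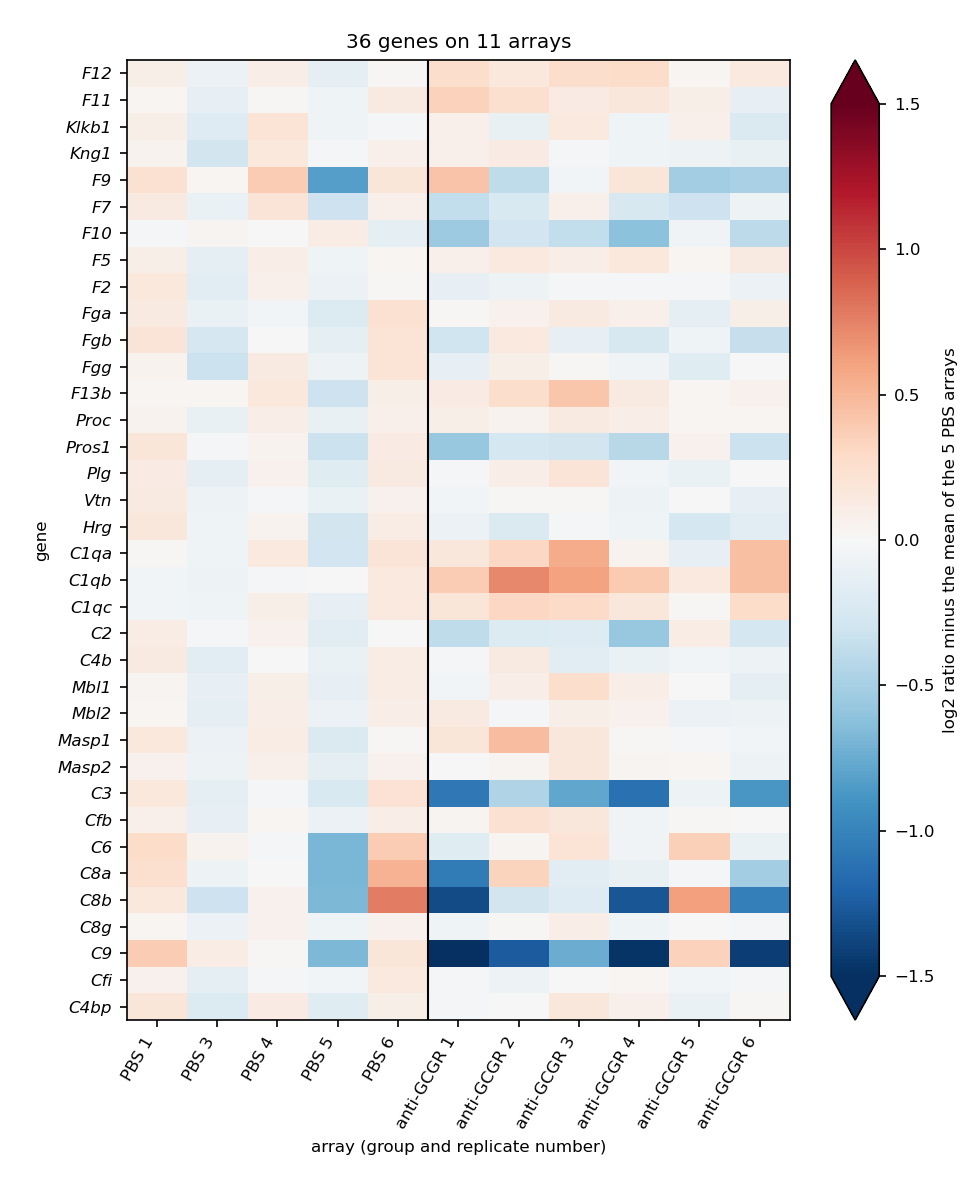
Log2 ratio of each of the 36 genes (y axis) on each of the 11 arrays (x axis), minus the mean of the 5 PBS arrays for that gene, with blue for lower and red for higher. C3 and C9 are blue on antibody arrays 1, 2, 3, 4 and 6 and not on anti-GCGR 5 for C9, while the 3 C1q genes are red on most antibody arrays and most other genes stay pale.

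Slide by slide, the differences of the 36 genes did not keep one sign. The median difference was -0.11 within slide 1 (26 of 36 genes below 0), 0.17 within slide 2 (3 of 36 below 0) and 0.03 within slide 3 (15 of 36 below 0). Slide 2 has 1 PBS array, PBS 5, so all of its differences share that array. C1qb was above 0 and F10 below 0 within all 3 slides (F10 at -0.57, -0.28 and -0.34), and C3 was below 0 in all 3. C9, C8a, C8b, C2 and Pros1 were below 0 in slides 1 and 3 and above 0 in slide 2.

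**Figure D4:**
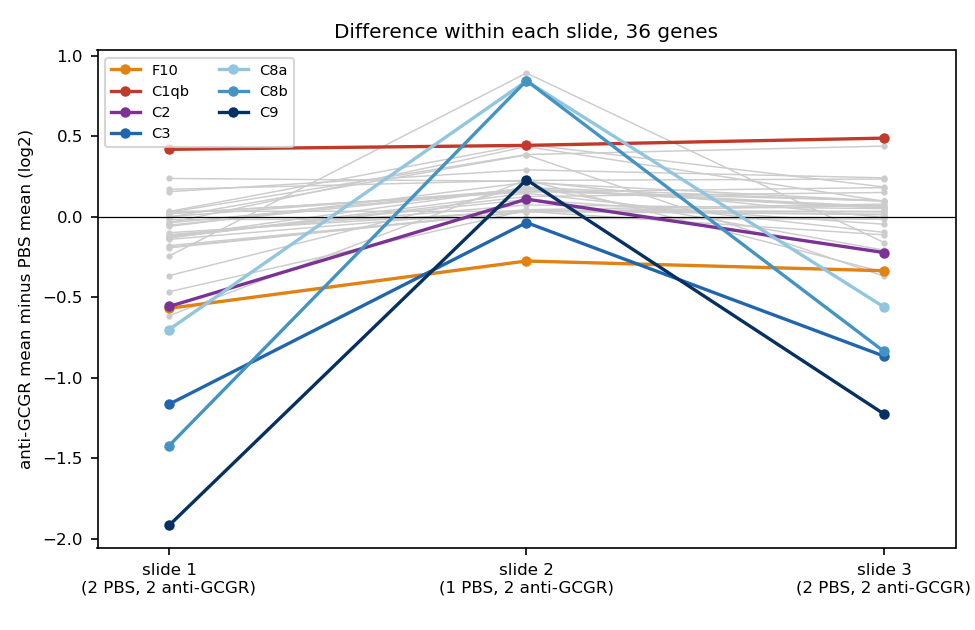
Difference of the antibody mean and the PBS mean in log2 ratio (y axis) within each of the 3 slides (x axis) for the 36 genes, as lines that join the values of a gene, with 7 genes coloured. C9, C8b and C8a swing from -1.92, -1.42 and -0.70 on slide 1 to values above 0 on slide 2, while C1qb stays between 0.42 and 0.49.

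Other genes of the same pathways were counted by lists. Among all genes tested, 8.98% rose, 5.66% fell and 53.7% had a log2 fold change above 0. The share of called genes that rose depended on the scaling, at 61.3% with loess and 21.3% with median centring. Of 27 other complement components measured, 4 rose, 0 fell and 23 did not pass (median log2 fold change 0.14). C1s1, the protease of the C1 complex that cleaves C2 and C4, rose by 0.93 ± 0.12 (SE, limma adjusted p = 0.0027), from 0.86 ± 0.07 (SD, n = 5) to 1.80 ± 0.28 (SD, n = 6), with no overlap between groups. Its near-identical copy C1s2 rose by 0.90, and the probes may not separate them. Properdin (Cfp), which stabilizes the alternative convertase, rose by 0.33 ± 0.10 (limma adjusted p = 0.0458), and the membrane regulator Cr1l by 0.29 ± 0.06 (limma adjusted p = 0.0111). C1s1, C1s2 and Cr1l passed in all 11 fits that left out 1 array, and Cfp in 3.

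Of 11 other coagulation factors and receptors measured, 3 rose, 0 fell and 8 did not pass. With loess all 11 had a log2 fold change above 0 (median 0.22, against 0.01 over all genes). The 3 that rose were the thrombin receptor F2r (0.50 ± 0.13 SE), the platelet adhesion protein Vwf (0.44 ± 0.11) and tissue factor, F3 (0.28 ± 0.09). Leaving out anti-GCGR 5 gave 0.63, 0.51 and 0.33 for them. Median centring gave 0.40, 0.33 and 0.17 in the same order (limma adjusted p = 0.054, 0.0459 and 0.271). These calls were fragile: of the 11 fits that left out 1 array, F3 passed in 1 (without anti-GCGR 5), F2r in 2 (without PBS 6 or anti-GCGR 5) and Vwf in 7. Vwf is also an endothelial marker, and which liver cells carry the F2r and F3 transcripts was not measured. Of 10 endothelial markers 3 rose (Vwf, Stab2 and Cdh5) and 0 fell. Vwf is in both lists, so it adds nothing separate here. Stab2 passed in 4 and Cdh5 in 2 of the 11 fits that left out 1 array. The sign of Cdh5 turned, to -0.069, in the scanner software's ratio. The list means, which include Vwf, were 2.75 to 2.98 on the PBS arrays and 2.87 to 3.30 on the antibody arrays. Of 10 stellate cell and fibroblast markers 5 rose and 0 fell, with list means of -1.36 to -1.16 and -1.07 to -0.54. The part of these cells in the rises was not tested.

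In fibrinolysis 2 of 10 measured genes rose and 0 fell (median 0.04). They were Anxa2 (0.66 ± 0.08 SE, limma adjusted p = 0.00265) and its partner S100a10 (0.64 ± 0.11, limma adjusted p = 0.00584), which together form a cell-surface receptor for plasminogen and its activator, both without overlap between groups. Of 9 coagulation inhibitors measured, 1 rose, the tissue factor pathway inhibitor Tfpi (0.37 ± 0.09 SE, limma adjusted p = 0.0204), and 0 fell. None of the 4 vitamin K cycle genes passed.

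Of 18 acute phase proteins, plasma proteins that hepatocytes raise in inflammation, 1 rose (ceruloplasmin, Cp, by 0.52 ± 0.15 SE, limma adjusted p = 0.0345), 0 fell and 17 did not pass (median -0.09). Cp passed in 2 of the 11 fits that left out 1 array (without PBS 6 or anti-GCGR 5). Among 19 regulators of liver plasma protein genes 3 rose and 1 fell. The interleukin-6 receptor Il6ra dropped by 0.54 in log2 (limma adjusted p = 0.0229), while its signalling partner Il6st rose by 0.34 (limma adjusted p = 0.0103). The factor Cebpd rose by 0.66 (limma adjusted p = 0.0346) and the bile acid receptor Nr1h4 by 0.23 (limma adjusted p = 0.0349). Il6st passed in all 11 fits that left out 1 array, Il6ra in 8, Cebpd in 6 and Nr1h4 in 3.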

How the data were processed

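Liver RNA of 11 db/db samples was measured on 2-colour Agilent arrays with liver in Cy5, reference RNA in Cy3 and no dye swap, per the labels. The submitters' processing notes name Agilent Feature Extraction 11, and the file headers 11.5.1.1. The deposited scanner files hold unlogged median intensity values per spot, and a log10 ratio of the signals that the software had already corrected, per the file headers. A table of log2 ratios by the authors came with them. Set against the values computed here, it ran as Cy5 over Cy3 on the log2 scale with no centring per gene, and its normalization is not given in these sources. Columns of PBS 1, 3, 4, 5 and 6 had medians of -0.0026, 0.0022, 0.00079, 0.0081 and 0.00021. Those of anti-GCGR 1 to 6 had -0.00096, 0.0075, 0.0015, -0.0028, 0.0054 and 0.0013.

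The median intensities were background-corrected with normexp (offset 50) and normalized by loess within each array in limma 3.58.1 (R 4.3.3), with control spots at weight 0. Uneven spots were left out (5 to 49 per array), no spot was saturated, and spots of a probe were averaged. Of 39429 gene probes, 26581 were named through their RefSeq accession (table of GRCm38.p6), for 20144 genes. Kept probes were well above background in Cy5 on 5 or more arrays, and the brightest of a gene represented it. Of the 36 genes, 9 had more than 1 probe. Groups were tested with lmFit and eBayes (two-sided, Benjamini-Hochberg over 15974 genes, threshold 0.05). Errors of log2 fold changes are moderated standard errors, and intervals are 95% intervals of that fit. The code was tested on simulated data. Promoters are from RefSeq.

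Named are the genes past the threshold, the fibrinogen chains, the C1q chains, C3, F2 and Gcgr, the gene with the smallest p of a role group without a call, and per pathway list the 2 largest rises and falls. Other genes of the 36 are named with their values by role. Macrophage markers that passed are named as a count of few. The genes, lists and tests were chosen with earlier results of these data known. The alternatives were other scalings, background settings and filters, the slide or the replicate number as a block, array weights, and leaving out arrays.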

Additional observations from a re-analysis of the deposited data

Results flagged for a closer look

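Over 144 groups of values (72 genes in both groups of arrays), 7 had 1 array whose gap to the next was large for the range of its group, by Dixon's ratio at the 95% level. About 1 group in 20 is marked in this way by chance. Among the 36 genes, F13b was lowest on PBS 5 at 6.39, against 6.72 on the next array, and C1qb was highest on PBS 6 at 2.66, against 2.51. In the lists beside them, F2r was lowest on anti-GCGR 5 at -1.63, against -0.93, and Cp was lowest on anti-GCGR 5 at 2.06, against 2.73. Cr1l was lowest on PBS 1 at 0.52, against 0.69. Cebpd was highest on anti-GCGR 2 at -1.09, against -1.74, and the pericyte receptor Pdgfrb was highest on anti-GCGR 6 at -0.81, against -1.23.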

How the results depend on the processing

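C3 and C1qb kept their sign in all 25 alternative settings run for them, and F10 on the probe used did too. The number of the 36 genes that rose, 1 here, was 0 with the scanner software's ratio, 3 with the slide as a block, with array weights and without both arrays numbered 5, and 1 to 3 when single arrays were left out (2 without PBS 6, 3 without anti-GCGR 5). The number that fell, 3 here, was 7 with median centring (also C2, F7, Hrg and Pros1) and 5 with array weights. With the Cy5 channel alone 6 fell (C2, C3, C9, F5, F7 and Hrg, without F10). There were 6 without both arrays numbered 5 and 2 to 6 without single arrays (6 without anti-GCGR 5). The number dropped to 2 with the scanner software's ratio, the slide as a block, no filter on dim probes and each probe tested singly. With the replicate number as a block it was 1. Of 2 alternatives chosen after seeing the data, leaving out slide 2 gave 2 rising and 7 falling genes, and F10 on its other probe gave -0.01. Among all genes, 2338 were called here, 3786 with array weights, 3669 without both arrays numbered 5, and 1240 to 3868 without single arrays (1240 without PBS 1, 1422 without PBS 3, 1533 without PBS 4, 1398 without anti-GCGR 4 and 3868 without anti-GCGR 5). Of the 36 genes, 15 kept their sign in all 25 settings. Among those at least 0.1 from 0 here, signs turned for F5 with the Cy5 channel alone (-0.24) and with median centring (-0.044), for Masp1 with the Cy5 channel alone (-0.00076), and with the scanner software's ratio for C8b (0.28), C8a (0.21), F11 (-0.0028) and F13b (-0.0026). That ratio also turned Cdh5 (-0.069) and Folr2 (-0.12) of the cell marker lists. The cause of these differences was not tested.

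Replicate numbers did not pair the samples: the deviations of same-numbered samples correlated at 0.13, 0.03, -0.01, -0.12 and 0.14 for replicates 1, 3, 4, 5 and 6. With the replicate block, in which the unmatched anti-GCGR 2 carries no weight, 1 of the 36 genes rose (C1qb, 0.39), 1 fell (F10, -0.39) and 1046 of all genes were called. C3 was then at -0.78 (limma adjusted p = 0.0508) and C9 at -1.05 (limma adjusted p = 0.149). C9 also missed the threshold with no filter on dim probes (limma adjusted p = 0.0516) and with the scanner software's ratio (-1.5, limma adjusted p = 0.0743). All probes of the 36 genes were well above background on enough arrays.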

Other observations

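Some markers of blood and of further liver cells also differed between the groups. Over all genes tested, 8.98% rose and 5.66% fell. Of 4 erythroid genes measured, 3 rose and 0 fell, all without overlap: the beta globin Hbb-bs by 0.89 ± 0.10 (SE), the red cell anion exchanger Slc4a1 by 0.42 ± 0.09 and the alpha globin Hba-a1 by 0.21 ± 0.05. Of 6 platelet and megakaryocyte genes 2 rose and 0 fell, the chemokines Pf4 (0.59 ± 0.09 SE) and Ppbp (0.34 ± 0.10). The call of Ppbp was fragile: it passed in 3 of the 11 fits that left out 1 array, and Pf4 in all 11. The list means were -1.05 to -0.87 on the PBS arrays and -0.89 to -0.67 on the antibody arrays. Of 6 monocyte and dendritic cell genes 3 rose and 0 fell, with the fractalkine receptor Cx3cr1 at 1.14 ± 0.23 (SE), the integrin Itgax at 0.59 ± 0.14 and the chemokine receptor Ccr2 at 0.48 ± 0.09. None of 7 neutrophil genes and none of 7 T, NK and B cell genes passed the test (limma adjusted p at least 0.252 and 0.38). At an unadjusted p under 0.05 there were 0 of 7 in either list.

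In stellate cells and fibroblasts the collagen genes Col1a1 (1.57 ± 0.29 SE) and Col3a1 (1.09 ± 0.19) rose, and Lrat, which stores vitamin A as esters, rose by 0.61 ± 0.16. When 1 array was left out, Col1a1 and Col3a1 passed in 11 of 11 fits and Lrat in 8. Of the other markers called in that list, Pdgfrb passed in 5 and Col1a2 in 3. Of 11 hepatocyte genes 1 rose, the fatty acid binding protein Fabp1 by 0.52 ± 0.12 (SE), 0 fell and 10 did not pass. At an unadjusted limma p under 0.05, 6 of the 11 differed, 4 of them lower, against 4869 of all 15974 genes, 2051 of them lower. Without anti-GCGR 5, 3 of the 11 rose and 2 fell, against 14.4% and 9.85% of all genes. The neutrophil list had its highest mean, 1.81, on PBS 5, one of the arrays that stood apart, against 0.52 on its lowest PBS array.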
